A study of Mus musculus with 13 samples.

Results

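The genes described here are the cell-surface heparan sulfate proteoglycan cores (syndecans and glypicans) and the enzymes that build, sulfate and trim glycan chains. A gene was a member when the symbol of a non-control array probe belonged to the families Chst, Hs2st, Hs3st, Hs6st, Ndst, Ext, Extl, Sulf, B3gnt, B4galt, B3gat, Sdc or Gpc. This gave 59 genes on 78 probes, out of 33470 genes and file names on 41174 probes. No measured value entered that rule. A probe whose old description reads B3gnt6 but whose current RefSeq symbol is B4gat1 was not counted. Of the 59 members 58 were tested, because the probe of Hs6st2, a heparan sulfate sulfotransferase, was not well above background on any of the 13 arrays.

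The study hybridised mouse retinal RNA to 13 Agilent arrays of 2 colours, with 6 samples labelled tip, 4 labelled stalk and 3 labelled as a control of nonvascular retina. Tip and stalk refer to the leading and trailing parts of the growing retinal vessels. They are together called the vessel samples here, and are set against the nonvascular control; the series title concerns endothelial tip cells of the retina. Every sample was labelled with Cy5 and hybridised against Universal Mouse Reference RNA in Cy3, with no dye swap, after PicoPure extraction and low-input linear amplification. The labels used here give no strain, genotype, age or treatment for any group, do not say how the cells were collected, and name no animal for any sample. The p-values therefore rest on the spread among these arrays alone, part of which may be technical.

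Values are log2 ratios of sample over reference, and a difference between groups is a difference of mean log2 ratios, on which 1 unit is a doubling. Group errors are SDs over arrays and errors of differences are standard errors (SE). A gene was called when its adjusted p (limma's moderated test over all 31946 genes tested, Benjamini-Hochberg) was under 0.05. Levels of different genes are not set against each other, since each ratio is relative to the reference. A lower value in a group of tissue samples may mean fewer cells of a type or less RNA per cell, which cannot be told apart here.

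Heparan sulfate is a long sugar chain that is built on a core protein, polymerised by the exostosins, and then sulfated in patches by N-, 2-O-, 3-O- and 6-O-sulfotransferases. The sulfation pattern governs how the chain holds growth factors such as VEGF, FGF and PDGF at the cell surface, and in the retina these gradients guide the sprouting vessels over a bed of astrocytes. Chondroitin, dermatan and keratan sulfate, sulfated lactosamine chains and the neural HNK-1 epitope are made by related enzymes that share the same sulfate donor.

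The marker genes of the labelled samples set the frame for what follows. The mean log2 ratio of 7 endothelial markers was 2.50 to 2.93 in tip, 2.96 to 3.12 in stalk and 0.52 to 0.89 in nonvascular retina. Of 7 pericyte markers 6 were lower in tip than in stalk, with means of 1.96 to 2.48 in tip, 2.84 to 3.18 in stalk and -0.37 to -0.12 in nonvascular retina. Retinal astrocyte markers averaged 1.49 to 1.78 in tip and 1.50 to 1.81 in stalk. Their mean was 0.12 and 0.27 in nonvascular replicates 1 and 2 but 1.33 in replicate 3. Ganglion cell markers averaged 2.28 to 2.54 in nonvascular retina, 0.58 to 0.92 in tip and 0.04 to 0.90 in stalk, and microglia markers were also higher in nonvascular retina (1.18 to 1.56, against 0.31 to 0.78 in tip and 0.58 to 0.73 in stalk). The arrays differed in brightness: red minus local background, as a median over probes and in scanner units, was 166 to 282 on the nonvascular arrays, 105 to 292 on the tip arrays and 98.1 to 141 on the stalk arrays.

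Between tip and stalk, 4 of the 58 members were called: Chst1, Ext1 and B4galt3 were higher in tip and Hs3st1 was lower. That is 6.9% of the members, against 2.8% of all genes tested (1.47% higher, 1.32% lower) and 3.68% of the tested genes with a symbol (1.8% higher, 1.88% lower). The median difference of the members was 0.04, against 0 over all genes tested, and the median size of a difference was 0.10 against 0.08. The plot of tip minus stalk for all members shows that the other 54 members lay between -0.56 and 0.44, with 95% intervals that reached from -1.07 to 1.1, so larger differences than those measured remain possible for some of them. With median centring in place of loess, or with array brightness in the model, the number called higher fell from 3 to 1 and the number called lower from 1 to 0. Over all genes tested, median centring changed the split from 471 higher and 422 lower to 49 and 203, and the red channel alone gave 211 and 483.

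**Figure D1:**
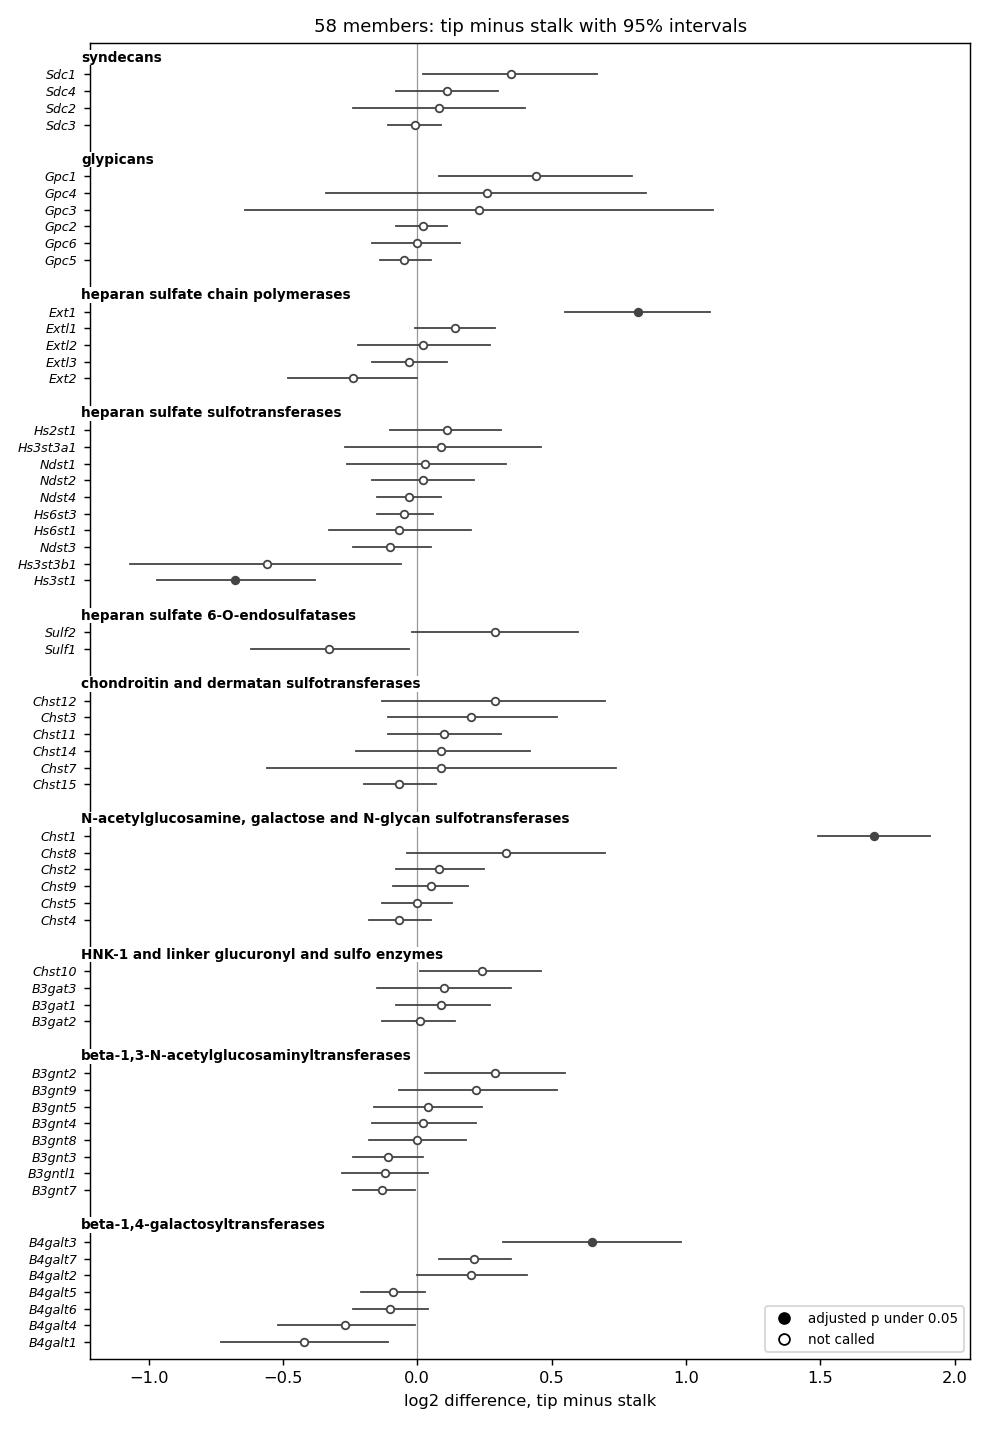
Tip minus stalk for the 58 members tested, grouped by role, on the log2 scale. Points are differences, lines are 95% intervals from limma, and filled points passed an adjusted p of 0.05. Chst1 stands farthest from 0 at 1.70, Ext1 (0.82) and B4galt3 (0.65) follow, and Hs3st1 (-0.68) is the only filled point below 0.

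Chst1, the sulfotransferase that adds sulfate to galactose in keratan sulfate and lactosamine chains, was 3.25-fold higher in tip than in stalk. Its log2 ratio ran from 0.06 to 0.43 over the 6 tip arrays, with a median of 0.25. The 4 stalk arrays read -1.39, -1.46, -1.60 and -1.34, and the nonvascular arrays read -0.32, -0.34 and -0.71. All tip arrays lay above all nonvascular arrays, and these in turn lay above all stalk arrays. The log2 difference was 1.70 ± 0.10 (SE; adjusted p 2.77e-06, limma). Tip also exceeded nonvascular retina by 0.71 ± 0.11 (adjusted p 0.000198, limma), and stalk fell short of it by -0.99 ± 0.11 (adjusted p 2.24e-05, limma). Among the 58 members Chst1 was alone in being called higher in one vessel group and lower in the other, but with median centring its call in tip against nonvascular retina was lost (adjusted p 0.109, limma). The call between tip and stalk held in all 25 alternative analyses. Tip replicates 5 and 6, whose brightness (114 and 105) lay within the range of the stalk arrays, read 0.12 and 0.06. These were the lowest tip values, and the other tip arrays read 0.20 to 0.43.

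Ext1, which with Ext2 forms the polymerase of heparan sulfate, was 1.77-fold higher in tip than in stalk. The tip arrays ran from 0.17 to 0.76 with a median of 0.60, and the stalk arrays read -0.34, -0.25, -0.29 and -0.29. No tip array came within the range of the stalk arrays, which were nearly identical (SD 0.04, n = 4). The difference was 0.82 ± 0.13 (SE; adjusted p 0.00443, limma), and the adjusted p rose to at most 0.0643 over the alternatives. Ext2, its partner, had a tip minus stalk difference of -0.24 ± 0.11, with a 95% interval of -0.48 to 0.00, and was not called (adjusted p 0.286, limma).

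B4galt3, a galactosyltransferase that extends N-acetylglucosamine on glycoproteins, was 1.57-fold higher in tip. Its tip values ran from -0.31 to 0.39 with a median of -0.07, and the stalk values were -0.93, -0.54, -0.73 and -0.42. The lowest tip array (-0.31) lay just above the highest stalk array (-0.42). The difference was 0.65 ± 0.15 (SE; adjusted p 0.043, limma), and it was not called in 15 of the 25 alternatives, where the adjusted p reached 0.205.

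Hs3st1, the heparan sulfate 3-O-sulfotransferase known for making the antithrombin-binding site, was 1.60-fold lower in tip than in stalk. The tip arrays ran from 0.52 to 1.05 with a median of 0.87. The stalk arrays read 1.49, 1.34, 1.28 and 1.93, and the nonvascular arrays 2.69, 2.83 and 2.45. The 3 groups formed steps without overlap, lowest in tip and highest in nonvascular retina. The tip minus stalk difference was -0.68 ± 0.14 (SE; adjusted p 0.0211, limma). It was not called in 4 of 25 alternatives, among them the fit without stalk replicate 1 and the fit with the replicate number as a block (adjusted p up to 0.175). The mean of the pericyte markers was also lower in tip (1.96 to 2.48) than in stalk (2.84 to 3.18). It was lowest in nonvascular retina (-0.37 to -0.12), where Hs3st1 was highest. The part of pericytes in the tip minus stalk difference was not tested.

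**Figure D2:**
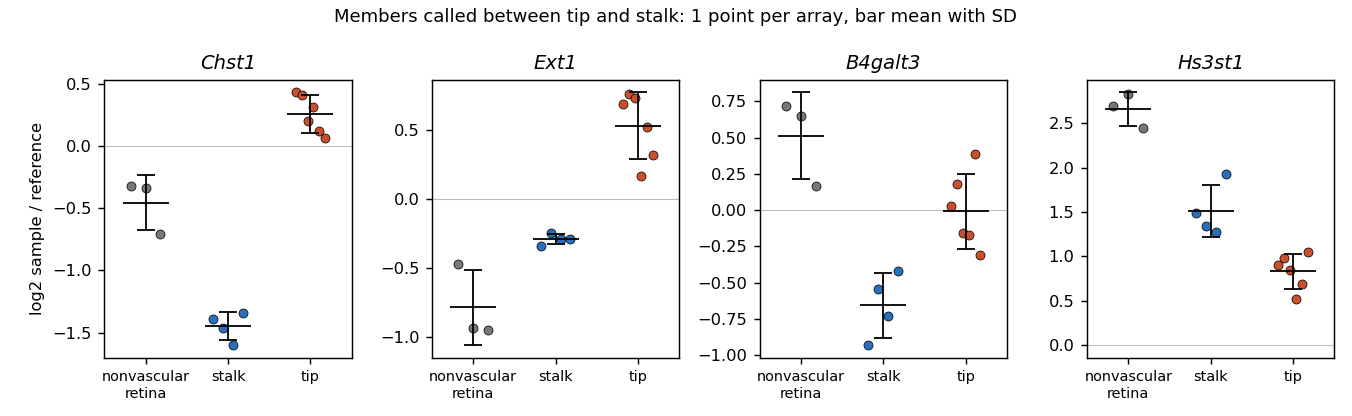
Log2 ratio of sample over reference (vertical axis) in each group (horizontal axis) for the 4 members called between tip and stalk. Each point is an array, and the bar gives the mean with the SD over 3 nonvascular, 4 stalk and 6 tip arrays. Tip lies above stalk on every array for Chst1, Ext1 and B4galt3 and below it on every array for Hs3st1.

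The arrays of tip and stalk were also without overlap for B4galt7 and B4galt1, which were not called. In total 4 members had every tip array above every stalk array, which was so for 2.73% of all genes tested, and 2 had every tip array below (2.75% of all genes tested). B4galt7, the galactosyltransferase that adds the first galactose of the glycosaminoglycan linker, had a difference of 0.21 ± 0.06 (SE; adjusted p 0.0846, limma). B4galt1, the galactosyltransferase that also forms lactose synthase, had a difference of -0.42 ± 0.14 (adjusted p 0.142, limma), which was called lower in tip without nonvascular replicate 3 and when only tip and stalk arrays were fitted.

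The promoters of 3 of the 4 called members are shown because they differ in their content of CpG dinucleotides, a feature the rule did not use. Each sequence is the 250 bases before the annotated start (RefSeq, GRCm38.p6), written 5′ to 3′ along the gene's strand with CG in capitals. The windows are chr2:92600867-92601116 (plus strand) for Chst1, chr1:171270078-171270327 (plus strand) for B4galt3 and chr5:39644632-39644881 (minus strand) for Hs3st1. Ext1 had no entry.
Chst1: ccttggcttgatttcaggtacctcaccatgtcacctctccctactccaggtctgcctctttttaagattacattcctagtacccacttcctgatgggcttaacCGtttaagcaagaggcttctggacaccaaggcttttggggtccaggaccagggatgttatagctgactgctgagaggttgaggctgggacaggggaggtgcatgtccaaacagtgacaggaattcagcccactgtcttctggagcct
B4galt3: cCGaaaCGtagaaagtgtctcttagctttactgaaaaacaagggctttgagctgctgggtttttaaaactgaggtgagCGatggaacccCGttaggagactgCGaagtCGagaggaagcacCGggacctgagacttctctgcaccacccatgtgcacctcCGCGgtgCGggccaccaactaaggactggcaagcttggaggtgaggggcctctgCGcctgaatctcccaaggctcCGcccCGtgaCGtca
Hs3st1: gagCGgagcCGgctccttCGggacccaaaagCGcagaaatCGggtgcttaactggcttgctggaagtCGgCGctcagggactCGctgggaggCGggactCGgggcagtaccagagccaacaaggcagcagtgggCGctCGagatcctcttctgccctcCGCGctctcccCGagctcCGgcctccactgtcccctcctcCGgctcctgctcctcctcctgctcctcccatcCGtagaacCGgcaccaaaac
The Chst1 window holds 1 CG, that of B4galt3 holds 14 and that of Hs3st1 holds 19. Over the 52 windows that matched 47 of the 59 members, the median was 18 CG, against 12 over 16383 windows of the genes tested that have a symbol. The GC box GGGCGG, searched on both strands, was in 36 of the 52 windows (69.2%), against 47.5% of the windows of genes tested. The core ACGTG, searched on both strands, was in 13 (25.0%, against 18.9%), and in none of the 3 windows shown, of which that of B4galt3 alone held GGGCGG. These matches describe the letters of the windows only.

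Both vessel groups differed from nonvascular retina in more of the members than in all genes tested. In tip, 16 members were higher and 19 lower than in nonvascular retina, 60.3% of those tested against 28% of all genes (11.1% higher, 16.8% lower). In stalk, 14 were higher and 17 lower, 53.4% against 29.8% (11.3% higher, 18.6% lower). Every tip array lay above every nonvascular array for 14 members and below for 14, against 11% and 16.8% of all genes, and for stalk this held for 13 and 18 members, against 16% and 21.3%. The median size of a difference from nonvascular retina was 0.42 in tip and 0.32 in stalk, against 0.12 and 0.14 over all genes tested, while the median differences were close to 0 (0.02 and 0.01). Among all tested genes with a symbol, 34.7% were called in tip (14.9% higher, 19.8% lower) and 36.8% in stalk (14.7% higher, 22% lower). With median centring the split over all genes in tip moved from 3557 higher and 5372 lower to 2179 and 5587. The 2 comparisons share the nonvascular arrays: 12 members were higher and 16 lower in both, 21 were called in neither, and the remainder were Chst1 and 8 members called in 1 of them.

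**Figure D3:**
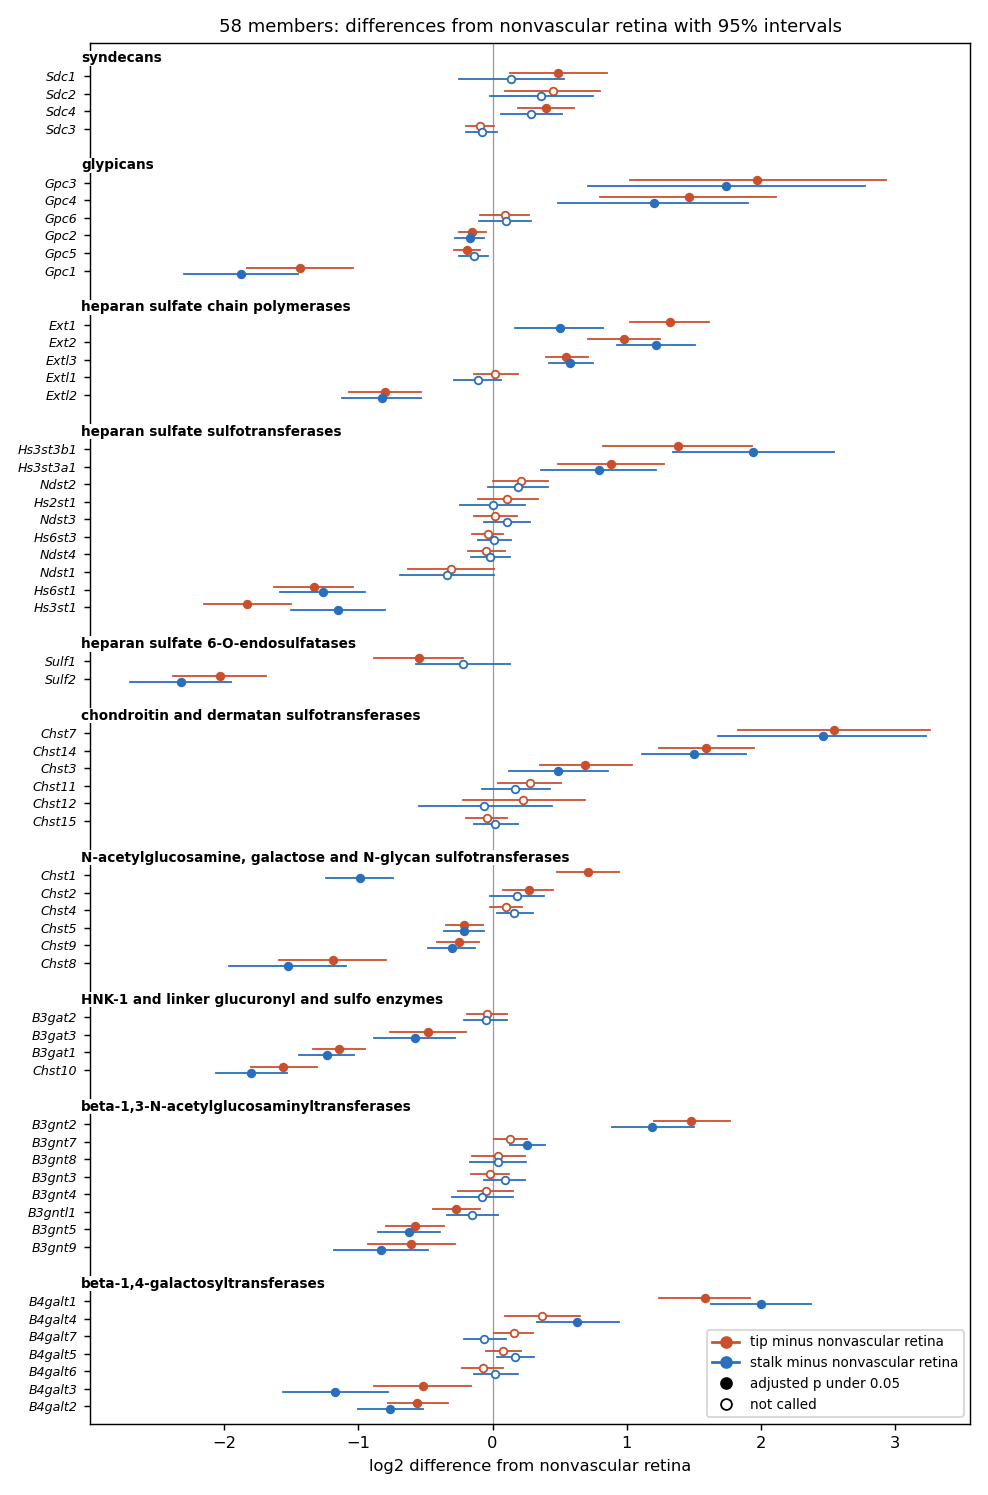
Differences of tip (red) and stalk (blue) from nonvascular retina for the 58 members tested, grouped by role, on the log2 scale. Points are differences, lines are 95% intervals from limma, and filled points passed an adjusted p of 0.05. Chst7 lies farthest to the right (2.54 in tip, 2.46 in stalk) and Sulf2 farthest to the left (-2.03 and -2.32), and for Chst1 the groups lie on opposite sides of 0.

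Syndecans are the transmembrane heparan sulfate cores. None of the 4 was called between tip and stalk by limma (1 at an unadjusted p under 0.05), with differences of 0.35 (95% interval 0.02 to 0.67) for Sdc1, 0.08 (-0.24 to 0.40) for Sdc2, -0.01 (-0.11 to 0.09) for Sdc3 and 0.11 (-0.08 to 0.30) for Sdc4. Sdc4, a focal adhesion syndecan, ran from -2.50 to -1.97 in tip with a median of -2.19, against -2.60, -2.58 and -2.62 in nonvascular retina. All tip arrays lay above all nonvascular arrays, and the difference was 0.40 ± 0.10 (SE; adjusted p 0.00717, limma), a call lost in 3 of 25 alternatives. Sdc1 was higher in tip than in nonvascular retina by 0.49 ± 0.17 (adjusted p 0.043, limma), a call that was lost in 15 of 25 alternatives. No syndecan was called between stalk and nonvascular retina by limma in the main fit (1 at an unadjusted p under 0.05), with differences of 0.14 ± 0.18 for Sdc1, 0.36 ± 0.18 for Sdc2, -0.08 ± 0.05 for Sdc3 and 0.29 ± 0.11 for Sdc4. In this comparison Sdc4 was called in 7 of 25 alternatives, Sdc2 in 2 and Sdc3 in 1. The probes of Sdc3, the neural syndecan, disagreed: the brighter one read -0.09 in tip minus nonvascular retina and the other -1.08. The other Sdc2 probe read 0.82 in tip and 0.98 in stalk minus nonvascular retina, against 0.45 ± 0.16 and 0.36 for the brighter one.

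Glypicans, the lipid-anchored cores, split into higher and lower members. Gpc3 and Gpc4 were higher in both vessel groups, Gpc1 and Gpc2 were lower in both, Gpc5 was lower in tip and Gpc6 was called in no comparison. The share called was 83.3% in tip and 66.7% in stalk, against 28% and 29.8% of all genes tested. Gpc1, the glypican of neurons and many adult tissues, ran from -1.25 to -0.88 in tip (median -1.01). It read -1.61, -1.05, -2.04 and -1.25 in stalk and 0.19, 0.65 and 0.32 in nonvascular retina. Every vessel array lay below every nonvascular array. Gpc1 was lower by -1.43 ± 0.18 in tip (SE; adjusted p 4.84e-05, limma) and by -1.87 ± 0.20 in stalk (adjusted p 9.15e-06, limma). Gpc1 was 0.44 higher in tip than in stalk, with a 95% interval of 0.08 to 0.80 and an adjusted p of 0.181 (limma).

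Gpc3, the glypican mutated in an overgrowth syndrome, ran from 3.65 to 4.08 in tip (median 3.96). It read 3.19, 2.99, 4.19 and 4.37 in stalk and 1.53, 0.94 and 3.36 in nonvascular retina. Nonvascular replicate 3 thus lay within the stalk values, and the other nonvascular arrays lay far below. Gpc3 was higher by 1.97 ± 0.44 in tip (SE; adjusted p 0.00405, limma) and by 1.74 ± 0.47 in stalk (adjusted p 0.0133, limma). Without nonvascular replicate 3 these became 2.68 ± 0.32 and 2.45 ± 0.34. Gpc4, which astrocytes are known to secrete, showed the same pattern, with 1.08 to 1.64 in tip (median 1.41), 0.67, 0.95, 1.56 and 1.33 in stalk and -0.45, -0.70 and 0.94 in nonvascular retina. Its differences were 1.46 ± 0.30 in tip and 1.20 ± 0.32 in stalk (adjusted p 0.00242 and 0.0129, limma), and 1.96 ± 0.20 and 1.70 ± 0.21 without that array. The stalk calls of both genes were lost in 4 of 25 alternatives, including the fits without nonvascular replicate 1 or 2.

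Gpc2, a glypican of developing neurons, was lower by -0.15 ± 0.05 in tip and -0.17 ± 0.05 in stalk (SE; adjusted p 0.0317 and 0.0255, limma). Gpc5 was lower in tip by -0.19 ± 0.05 (adjusted p 0.00863, limma), a call lost in 4 of 25 alternatives, and had a stalk difference of -0.14 ± 0.05 (adjusted p 0.0507, limma). The Gpc2 calls were lost in 11 and 9 of 25 alternatives, and with the red channel alone the signs turned, to 0.03 in tip and 0.13 in stalk. Gpc6 read 0.77 ± 0.12 (SD, n = 6) in tip, 0.77 ± 0.13 (n = 4) in stalk and 0.67 ± 0.08 (n = 3) in nonvascular retina. Between tip and stalk no glypican was called by limma (1 at an unadjusted p under 0.05), and the intervals were wide for Gpc3 (-0.64 to 1.1) and Gpc4 (-0.34 to 0.85).

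The exostosins that start and polymerise heparan sulfate were mostly higher in the vessel samples: Ext1, Ext2 and Extl3 rose in both groups, Extl2 fell in both and Extl1 was not called. In each group 80% were called, against 28% of all genes tested in tip and 29.8% in stalk. Ext2 ran from 0.14 to 0.55 in tip (median 0.23). It read 0.41, 0.43, 0.68 and 0.53 in stalk and -1.03, -0.65 and -0.44 in nonvascular retina. No nonvascular array reached a vessel array, and the differences were 0.98 ± 0.12 in tip and 1.22 ± 0.13 in stalk (SE; adjusted p 4.74e-05 and 1.34e-05, limma). Ext1 was higher by 1.32 ± 0.14 in tip (adjusted p 9.42e-06, limma), and by 0.50 ± 0.15 in stalk (adjusted p 0.0222, limma), where median centring and the fits without nonvascular replicate 2 or 3 lost the call. Extl3, which adds the first N-acetylglucosamine of the chain, was higher by 0.55 ± 0.07 and 0.58 ± 0.08, although its dimmer probe read 0.02 and -0.01 and median centring lost both calls. Extl2, which transfers a hexosamine to the linker, was lower by -0.80 ± 0.13 in tip and -0.82 ± 0.14 in stalk (adjusted p 0.000298 and 0.000419, limma).

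Of the 10 heparan sulfate sulfotransferases tested, 4 were called in each vessel group, 40% against 28% of all genes tested in tip and 29.8% in stalk (34.7% and 36.8% of those with a symbol). The 3-O-sulfotransferases Hs3st3b1 and Hs3st3a1 were higher, and Hs3st1 and the 6-O-sulfotransferase Hs6st1 were lower. The N-deacetylase/N-sulfotransferases Ndst1 to Ndst4, the 2-O-sulfotransferase Hs2st1 and Hs6st3 were called in no comparison, with differences from nonvascular retina of -0.34 to 0.21. Hs3st3b1 ran from 1.34 to 2.00 in tip (median 1.58). It read 2.72, 1.66, 2.41 and 1.91 in stalk and 0.10, -0.14 and 0.76 in nonvascular retina. All vessel arrays lay above all nonvascular arrays, by 1.38 ± 0.26 in tip and 1.94 ± 0.28 in stalk (SE; adjusted p 0.00111 and 0.000127, limma).

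Hs3st3a1 was higher by 0.88 ± 0.18 in tip and 0.79 ± 0.20 in stalk (SE; adjusted p 0.00253 and 0.00823, limma). It ran from 0.97 to 1.59 in tip, and read 0.84, 1.39, 1.12 and 1.59 in stalk and 0.34, 0.13 and 0.85 in nonvascular retina. The stalk and nonvascular arrays thus overlapped. Its probe was dim in nonvascular retina, well above background on 2 of 3 arrays, with a median red signal over background of 45.1. Hs3st3a1 and Hs3st3b1 have sulfotransferase domains of nearly the same sequence, and whether their probes tell them apart was not tested. Hs6st1 ran from -0.63 to 0.08 in tip (median -0.23), read -0.04, -0.20, -0.22 and -0.26 in stalk, and 1.17, 1.29 and 0.78 in nonvascular retina. The vessel arrays overlapped each other and lay below all nonvascular arrays. Hs6st1 was lower by -1.33 ± 0.14 in tip and -1.26 ± 0.15 in stalk (adjusted p 7.81e-06 and 2.26e-05, limma). Hs3st1 was lower by -1.83 ± 0.15 in tip and -1.15 ± 0.16 in stalk (adjusted p 1.19e-06 and 0.000117, limma).

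Sulf2, an extracellular enzyme that removes 6-O-sulfate from finished heparan sulfate, had the largest decrease among the members. It ran from -1.80 to -1.25 in tip (median -1.65). The stalk arrays read -2.18, -2.21, -1.71 and -1.51, and the nonvascular arrays 0.57, 0.36 and 0.33. The vessel groups overlapped, and both lay far below nonvascular retina. The differences were -2.03 ± 0.16 in tip and -2.32 ± 0.17 in stalk (SE; adjusted p 7.76e-07 and 4.6e-07, limma), which is 4.10-fold and 5.01-fold lower. A second Sulf2 probe read -1.76 and -1.99. Sulf1, its paralog, was lower in tip by -0.55 ± 0.15 (adjusted p 0.0143, limma), and had a stalk difference of -0.22 ± 0.16 (adjusted p 0.356). The Sulf1 call was lost in 4 of 25 alternatives, among them the fit without nonvascular replicate 3 (-0.46 ± 0.17, adjusted p 0.0735, limma). In these samples the mean of the ganglion cell markers and that of the microglia markers were also lower than in nonvascular retina. So was the mean of the amacrine, horizontal and bipolar cell markers (0.30 to 0.59 in tip, 0.45 to 0.67 in stalk, 1.20 to 1.89 in nonvascular retina). Not every marker fell: Pou4f1, Tfap2a and Cx3cr1 overlapped between the groups. Slc6a9 read -0.62 to -0.20 on the vessel arrays, against -1.23, -1.63 and -0.56. The part of these cells in the decreases of Sulf2, Gpc1, Hs6st1 and Hs3st1 was not tested.

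**Figure D4:**
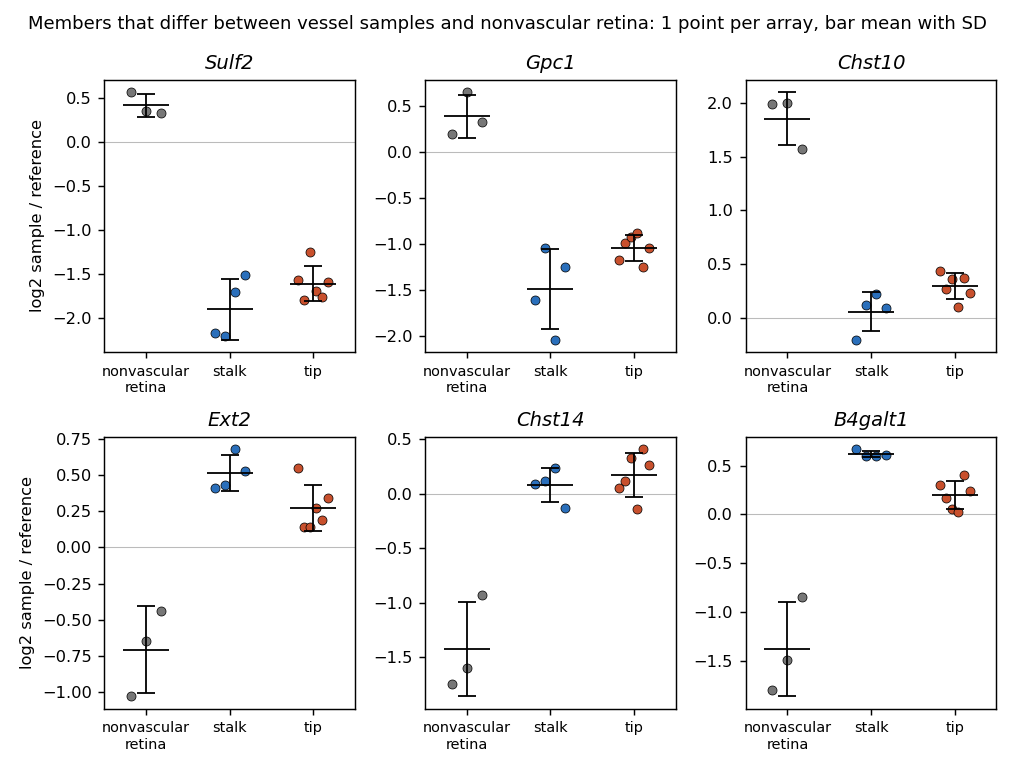
Log2 ratio of sample over reference (vertical axis) in each group (horizontal axis) for 6 members that differ between the vessel samples and nonvascular retina. Each point is an array, and the bar gives the mean with the SD over 3 nonvascular, 4 stalk and 6 tip arrays. Sulf2, Gpc1 and Chst10 are lower on every tip and stalk array than on any nonvascular array, and Ext2, Chst14 and B4galt1 are higher on every one.

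Of the 6 chondroitin and dermatan sulfotransferases, Chst7, Chst14 and Chst3 were higher in both vessel groups, and Chst11, Chst12 and Chst15 were called in no comparison. That is 50% in each group, against 11.1% of all genes tested called higher in tip and 11.3% in stalk. Among tested genes with a symbol these shares were 14.9% and 14.7%. Chst7, a chondroitin and N-acetylglucosamine 6-O-sulfotransferase, had the largest increase of all members. It ran from 3.10 to 3.56 in tip (median 3.33) and read 3.33, 3.11, 3.29 and 3.24 in stalk. The nonvascular arrays read 0.20, 0.08 and 2.08. Nonvascular replicate 3 lay nearer to the vessel arrays than to the other nonvascular arrays, but below every vessel array. Chst7 was higher by 2.54 ± 0.33 in tip and 2.46 ± 0.36 in stalk (SE; adjusted p 6.11e-05 and 0.000148, limma), and by 3.19 ± 0.10 and 3.10 ± 0.11 without that array. Its tip minus stalk difference was 0.09, with a 95% interval of -0.56 to 0.74.

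Chst14, which sulfates dermatan, ran from -0.14 to 0.41 in tip (median 0.19). It read 0.09, 0.12, 0.24 and -0.13 in stalk and -1.74, -1.60 and -0.93 in nonvascular retina. The vessel groups overlapped and lay above nonvascular retina by 1.59 ± 0.17 in tip and 1.50 ± 0.18 in stalk (SE; adjusted p 9.02e-06 and 2.8e-05, limma). Chst3, a chondroitin 6-O-sulfotransferase, was higher by 0.69 ± 0.16 in tip (adjusted p 0.00501, limma) and by 0.49 ± 0.17 in stalk (adjusted p 0.0479, limma), a stalk call lost in 16 of 25 alternatives. The dimmer Chst3 probe read -0.01 and 0.00. Chst11 and Chst12, the chondroitin 4-O-sulfotransferases, had tip differences of 0.28 ± 0.11 and 0.23 ± 0.21 and were not called.

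Nonvascular replicate 3 was the highest of its group for Gpc3, Gpc4, Chst7, Chst14, B4galt1, Hs3st3b1 and Hs3st3a1. This also held for other members, such as Ext2, Extl3, Chst3, B4galt4 and Sulf1. It was the lowest for Chst1, Chst8, Chst10, Hs3st1, Hs6st1, Sulf2, B4galt2, B4galt3 and Extl2, among others. Of any 3 arrays 1 must be the highest, and no share over all genes was computed for replicate 3. On the same array Pdgfra, a receptor of retinal astrocytes, read 1.94, against -1.18 and -0.74 on the other nonvascular arrays and 2.31 to 3.40 over the vessel arrays. S100b read 4.45 against 1.89 and 2.22, and Aldh1l1 read 1.45 against -0.10 and -0.02. Gfap, Pax2 and Aqp4 stayed between -0.29 and 0.38 on all 13 arrays. Müller glia markers averaged 3.21 on that array against 2.46 and 2.29. Of these, Rlbp1, Slc1a3, Dkk3 and Glul were highest there, but Clu read -0.09 against 0.60 and 0.77, and Apoe 3.37 against 2.86 and 3.40. Endothelial markers averaged 0.89 against 0.52 and 0.64, and pericyte markers -0.22 against -0.37 and -0.12. Of the endothelial markers Kdr read 4.2 against 2.92 and 2.97, and Cldn5 alone was not highest there (0.48 against 0.26 and 0.79). The part of these cells in the members' values was not tested. Without the array the counts were 15 higher and 18 lower members in tip, 13 and 17 in stalk, and 3 and 2 between tip and stalk. Over all genes tested, the same fit called 3283 higher and 5078 lower in tip (26.2%) and 3361 and 5638 in stalk (28.2%). Between tip and stalk it called 575 and 474 (3.28%).

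**Figure D5:**
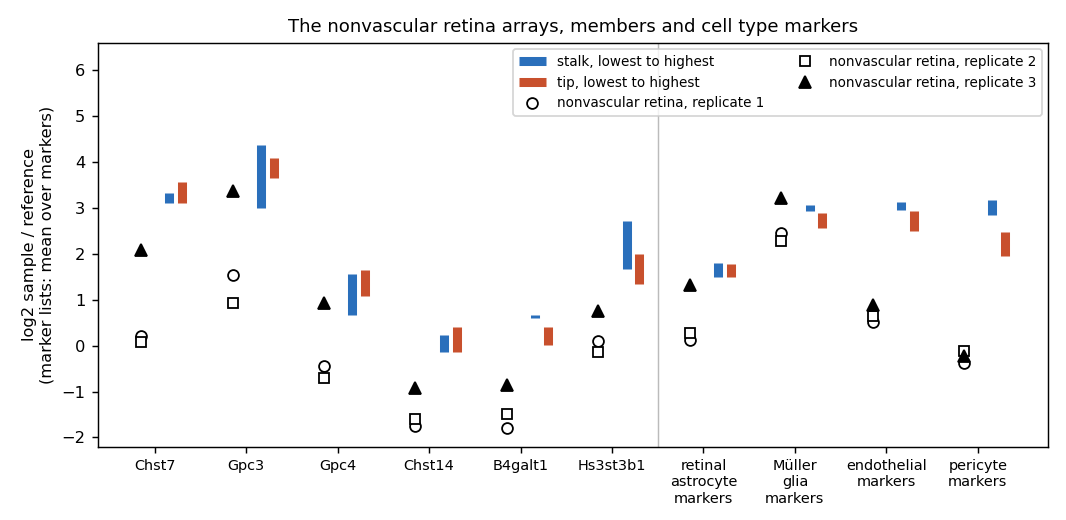
Log2 ratio of sample over reference (vertical axis) for 6 members and, to the right of the line, the mean over the markers of 4 cell types. Symbols are the 3 nonvascular arrays, and bars span the lowest to the highest of 4 stalk and 6 tip arrays. The filled triangle, nonvascular replicate 3, lies above the other nonvascular arrays for all 6 members and for the astrocyte (1.33), Müller glia (3.21) and endothelial (0.89) markers, but not for the pericyte markers. Members that were lowest on that array, such as Chst1 and Sulf2, are not shown.

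The sulfotransferases of N-acetylglucosamine, galactose and N-glycans were led by Chst1, described above, and by Chst8. Chst8, which sulfates N-acetylgalactosamine on glycoprotein hormones, ran from 0.46 to 1.22 in tip (median 0.76). It read 0.63, 0.41, -0.06 and 0.77 in stalk and 2.12, 2.05 and 1.71 in nonvascular retina. Both vessel groups lay below every nonvascular array, by -1.19 ± 0.19 in tip and -1.52 ± 0.20 in stalk (SE; adjusted p 0.000275 and 6.51e-05, limma). Chst9, which shares that activity, was lower by -0.25 ± 0.07 and -0.30 ± 0.08 (adjusted p 0.0187 and 0.00967, limma), and each call was lost in 5 of 25 alternatives (adjusted p up to 0.154 and 0.145), in tip also without nonvascular replicate 1. Chst5, an N-acetylglucosamine 6-O-sulfotransferase, was lower by -0.21 ± 0.07 in both, calls lost in 6 of 25 alternatives in tip and 12 in stalk, both without nonvascular replicate 1 or 2, and the sign turned to 0.27 in tip with the red channel alone. Chst2, of the same activity, was higher in tip by 0.27 ± 0.08 (adjusted p 0.0313, limma), a call lost in 5 of 25 alternatives, among them the fits without nonvascular replicate 2 or 3 or tip replicate 3. Chst4 was called in no comparison.

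The HNK-1 epitope is a sulfated glucuronic acid cap on neural adhesion molecules, and of its 3 enzymes among the members Chst10 and B3gat1 were lower in both vessel groups. Of all genes tested, 16.8% were called lower in tip and 18.6% in stalk. Chst10, the HNK-1 sulfotransferase, ran from 0.10 to 0.44 in tip (median 0.31). It read -0.20, 0.12, 0.22 and 0.09 in stalk and 1.99, 2.00 and 1.57 in nonvascular retina. B3gat1, a glucuronyltransferase of that epitope, ran from 0.31 to 0.50 in tip (median 0.40), read 0.15, 0.24, 0.35 and 0.49 in stalk, and 1.33, 1.70 and 1.60 in nonvascular retina. For both genes every vessel array lay below every nonvascular array. Chst10 was lower by -1.56 ± 0.11 in tip and -1.80 ± 0.12 in stalk (SE; adjusted p 4.37e-07 and 2.49e-07, limma). B3gat1 was lower by -1.14 ± 0.09 and -1.23 ± 0.10 (adjusted p 7.79e-07 and 7.32e-07, limma), whereas its dimmer second probe read 0.31 and 0.29. B3gat2, the other HNK-1 glucuronyltransferase, was called in no comparison, with differences of -0.04 ± 0.07 in tip and -0.05 ± 0.07 in stalk. B3gat3, which completes the glycosaminoglycan linker, was lower by -0.48 ± 0.13 and -0.58 ± 0.14 (adjusted p 0.0129 and 0.00605, limma), and its tip call was lost in 3 of 25 alternatives, among them the fits without nonvascular replicate 1 or 2.

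The N-acetylglucosaminyl- and galactosyltransferases that extend lactosamine chains moved in both directions. B3gnt2, the main polylactosamine synthase, ran from -1.12 to -0.54 in tip (median -0.83). It read -1.41, -1.02, -1.24 and -0.78 in stalk and -2.37, -2.24 and -2.30 in nonvascular retina. It was higher in every vessel array, by 1.48 ± 0.13 in tip and 1.19 ± 0.14 in stalk (SE; adjusted p 2.29e-06 and 2.78e-05, limma), while a dimmer probe read 0.18 and 0.20. B3gnt5, which starts the lacto-series glycolipids, was lower by -0.58 ± 0.10 and -0.62 ± 0.11 (adjusted p 0.000569 and 0.000587, limma). B3gnt9 was lower by -0.61 ± 0.15 and -0.83 ± 0.16 (adjusted p 0.00755 and 0.00145, limma), the tip call being lost without nonvascular replicate 2 (adjusted p 0.0537). B3gnt7, which acts on keratan sulfate, was higher in stalk by 0.26 ± 0.06 (adjusted p 0.00584, limma), a call lost with array brightness as a covariate. B3gntl1 was lower in tip by -0.27 ± 0.08 (adjusted p 0.0239, limma). That call was lost with the Feature Extraction log ratios, with the replicate block and without nonvascular replicate 1, and the difference became 0.00 with the red channel alone.

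Among the galactosyltransferases, B4galt1 ran from 0.02 to 0.40 in tip (median 0.21). It read 0.67, 0.60, 0.60 and 0.61 in stalk and -1.80, -1.49 and -0.85 in nonvascular retina. The groups did not overlap, with stalk highest and nonvascular retina lowest. B4galt1 was higher by 1.58 ± 0.16 in tip and 2.00 ± 0.17 in stalk (SE; adjusted p 6.21e-06 and 1.51e-06, limma). Its other probes read 0.58 and -0.19 in tip and 0.72 and -0.10 in stalk, so the dimmest of the 3 did not share the increase. B4galt4, which prefers sulfated N-acetylglucosamine, was higher in stalk by 0.63 ± 0.14 (adjusted p 0.00347, limma) and had a tip difference of 0.37 ± 0.13 (adjusted p 0.0505). Its stalk call was lost with median centring (adjusted p 0.0905, limma), and its tip difference was called in 10 of 25 alternatives. B4galt2 was lower by -0.56 ± 0.10 and -0.76 ± 0.11 (its dimmer probe read -0.05 and -0.51), and B4galt3 by -0.52 ± 0.17 and -1.17 ± 0.18 (adjusted p 0.0344 and 0.000255, limma). The tip call of B4galt3 was lost in 7 of 25 alternatives (adjusted p up to 0.159), 5 of which left out a single array (nonvascular replicate 1 or 2, or tip replicate 3, 4 or 6). B4galt5 and B4galt6, the lactosylceramide synthases, and B4galt7 were not called against nonvascular retina.

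Lists of other genes on the same pathways were tested in the same fit, where 2.8% of all genes, and 3.68% of those with a symbol, were called between tip and stalk. Of 11 genes of the epimerase, sulfate donor and precursor list, 1 was called (9.09%): Ugdh, which makes UDP-glucuronic acid, was higher in tip by 0.50 ± 0.10 (SE; adjusted p 0.03, limma). Of 5 chondroitin and dermatan chain enzymes 1 was called (20%): Csgalnact1, which starts chondroitin chains, was higher in tip by 0.60 ± 0.13 (adjusted p 0.0338, limma). Both calls were lost in 12 of 25 alternatives. Of 24 matrix and other proteoglycan cores, 1 was higher and 2 were lower in tip (12.5% called). Esm1, a dermatan sulfate proteoglycan of endothelial cells, was higher by 2.87 ± 0.16 (adjusted p 2.77e-06, limma). Srgn, the core of secretory granules, was lower by -1.48 ± 0.19 (adjusted p 0.00154, limma), and Cspg4, itself one of the pericyte markers, by -0.77 ± 0.15 (adjusted p 0.0189, limma). The Cspg4 call was lost in 4 of 25 alternatives, among them the fit without stalk replicate 3 (adjusted p up to 0.18 over the alternatives, limma). Of 18 degradation genes 1 was lower (5.56%), Hyal2, a hyaluronidase (-0.54 ± 0.09, adjusted p 0.0076, limma). Median centring and array brightness as a covariate lost the Hyal2 call (adjusted p up to 0.0994, limma). Of 23 heparan sulfate binding growth factors and receptors 1 was lower (4.35%), the VEGF receptor Flt1 (-0.94 ± 0.11, adjusted p 0.000822, limma). None was called among 3 linker and chain starting enzymes, 3 hyaluronan synthases and 13 partners of sulfated lactosamine and HNK-1 glycans, where limma gave 0, 0 and 1 at an unadjusted p under 0.05. The list medians ran from -0.15 to 0.15.

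Against nonvascular retina 28% of all genes tested were called in tip and 29.8% in stalk (34.7% and 36.8% of those with a symbol). The matrix cores had 9 higher and 4 lower genes of 24 in tip (54.2% called), and 8 and 4 in stalk (50%). Esm1, Cspg4 and Col18a1, the collagen that carries heparan sulfate in vessel basement membranes, were higher in tip by 6.38 ± 0.17, 1.95 ± 0.17 and 3.69 ± 0.46. Spock3, Ncan and Spock1, proteoglycans of neural tissue, were lower by -2.16 ± 0.18, -2.16 ± 0.28 and -0.53 ± 0.05. Growth factors and receptors had 7 higher and 2 lower genes of 23 in tip (39.1% called) and 8 and 3 in stalk (47.8%). Flt1, Robo4 and Pdgfb, genes of vessel endothelium, were higher in tip by 4.11 ± 0.12, 3.15 ± 0.10 and 2.72 ± 0.11, and Shh was lower by -1.36 ± 0.07. The precursor list had 4 higher and 2 lower genes of 11 in tip (54.5% called) and 2 and 2 in stalk (36.4%). Slc26a2, a sulfate transporter, Ugdh and Bpnt2 were higher in tip by 0.41 ± 0.09, 0.62 ± 0.13 and 0.45 ± 0.12, and Bpnt2 and the nucleotide sugar transporter Slc35d1 were higher in stalk by 0.69 ± 0.13 and 0.86 ± 0.20. Papss1, which makes the sulfate donor, and Bpnt1, which clears its by-product, were lower in stalk by -0.52 ± 0.08 and -0.76 ± 0.13 and in tip by -0.28 ± 0.07 and -0.49 ± 0.12. Degradation enzymes had 3 higher and 1 lower of 18 in tip and 2 and 2 in stalk (22.2% called in each). Hyal2, although lower in tip than in stalk, was higher than in nonvascular retina in both, by 0.91 ± 0.10 in tip and 1.45 ± 0.11 in stalk, and the sulfamidase Sgsh was higher by 1.18 ± 0.17 and 1.41 ± 0.18. Hyal1, another hyaluronidase, was higher in tip by 0.23 ± 0.08, which turned to 0.00 with the red channel alone. Its call held in only 8 of 25 alternatives. Of 13 glycan partners 3 were higher in tip (23.1%) and 2 in stalk (15.4%). Among them Cd34, a sialomucin of endothelium, was higher in tip by 4.73 ± 0.15 and the sialyltransferase St3gal6 by 2.35 ± 0.32. Of the small lists, Xylt2, which starts the linker, was higher by 0.38 ± 0.12 in tip and 0.56 ± 0.13 in stalk, Has3 was lower by -0.45 ± 0.09 and -0.30 ± 0.09, and Has1 was lower in tip by -0.48 ± 0.14. Of the chondroitin chain enzymes Csgalnact1 and Dse were higher in tip by 0.59 ± 0.15 and 0.30 ± 0.10. Each of these named differences in tip or stalk passed limma's adjusted p of 0.05 in the main fit, but not in every alternative. The tip calls of Dse and Xylt2 were lost in 13 and 8 of 25, and the stalk call of Has3 in 8. Those of Bpnt2, Papss1 and Has1 in tip were lost in 3 each. Ugdh in tip and Xylt2 in stalk lost theirs in 2, and Has3 and Csgalnact1 in tip and Bpnt2 in stalk in 1.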

How the data were processed

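The 13 arrays were scanned and read by the authors with Agilent Feature Extraction (8.5.1.1, per the submitters' processing notes). Per the file headers, the deposited mean and background intensity values of each spot are not normalized, and the deposited log10 ratio is that of dye-normalized red over green. The authors' deposited value table holds linear ratios, of which at least 99.94% per array equalled the antilog of that log10 ratio within 0.001 on the log10 scale.

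Mean intensities were corrected by normexp (offset 50) against the local background and normalized by loess within each array in limma 3.58.1 (R 4.3.3, with the data.table package, 1.17.8). Control spots had weight 0, and spots marked as outliers were set to missing. Each gene was taken from its brightest probe on average and had to be well above background in red on at least 3 of 13 arrays. The offset shrinks ratios of dim probes. One linear model covered all arrays, with a mean for each of the 3 groups, and Benjamini-Hochberg adjustment ran over all genes of a comparison. Group sizes were 6 tip, 4 stalk and 3 nonvascular, and the number of arrays limits the precision. The code was tested on simulated data.

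Symbols came from a RefSeq table (GRCm38.p6): 22072 probes through their own accession, 142 through another accession, and 605 and 493 through a current or older symbol in the description. A further 953 kept a symbol that the table lacks, and 16909 had none. No position is given for the probes, whose genome build is not given in the sources used here. Promoters were read with pandas 2.3.3 under Python 3.11.15, and plots were drawn with matplotlib 3.10.9.

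The members and the gene lists were chosen with earlier results of these data known. Any member could be named. The text names every syndecan and glypican, the enzymes called in tip minus stalk and up to 4 per role with the largest differences from nonvascular retina, the rest in brief; of the other lists, genes called in tip minus stalk and up to 3 per direction with the smallest p against nonvascular retina. The values of 1 gene of these lists are not reported here. Alternatives changed the background correction, the values, the normalization, the channel, the filter, the choice of probe, the arrays fitted, the replicate block, a brightness covariate and the empirical Bayes prior, and left out each array in turn. The labels do not say whether replicate numbers pair the samples. Same-numbered samples correlated at -0.14 to 0.08 in their deviations from the group means, which over so few arrays cannot show that no animal or batch was shared.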

Additional observations from a re-analysis of the deposited data

Results flagged for a closer look

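Over the 59 members, the 6 tip and the 4 stalk arrays were examined as 118 groups for a single array far from the rest, and 9 such arrays were found. Chance alone gives about 5% of groups. In tip, Extl2 read -0.64 on replicate 5 against -0.32 to -0.18 on the others, and B3gntl1 read -0.03 on the same array against 0.07 to 0.13. Hs2st1 read -0.33 on tip replicate 6 against 0.06 to 0.20, and Chst15 read 0.22 there against -0.04 to 0.02. Ndst4 read 0.45 on tip replicate 1 against 0.16 to 0.25. In stalk, Chst12 read 0.04 on replicate 1 against -0.91 to -0.80, the widest gap of the 9, and B4galt1 read 0.67 on that array against 0.60 to 0.61. B4galt4 read 1.32 on stalk replicate 3 against 1.76 to 1.80, and Hs6st3 read 0.07 on stalk replicate 2 against 0.17 to 0.18. None of these 9 genes was called between tip and stalk.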

How the results depend on the processing

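Over 25 alternatives, the member counts against nonvascular retina stayed within 1.5 times of the reported ones, except that 11 in place of 19 members were lower in tip with the Feature Extraction log ratios. Over all genes tested those log ratios called 4551 lower in tip, in place of 5372. Between tip and stalk the counts are small: 1 member was higher, in place of 3, with median centring and with array brightness as a covariate, and the number lower, in place of 1, was 0 with median centring, 0 with brightness and 2 when only the groups compared were fitted. Between tip and stalk, leaving out each array gave 2 to 3 higher and 0 to 2 lower members, where the count was 0 without stalk replicate 1 and 2 without nonvascular replicate 3 (with B4galt1) or tip replicate 6 (with Sulf1). Against nonvascular retina it gave 15 to 17 higher and 13 to 19 lower in tip, and 10 to 15 and 15 to 18 in stalk. The share called over all genes tested in these fits was 22.3% to 28.5% in tip and 24.3% to 30.1% in stalk. It is not known whether the replicate numbers pair the samples. A fit with the replicate number as a block called 2 members higher and 0 lower between tip and stalk. The counts were 14 and 14 between tip and nonvascular retina, and 14 and 16 between stalk and nonvascular retina. Over all genes tested the block fit called 2.07% between tip and stalk, 22.3% in tip and 26.5% in stalk against nonvascular retina. Of the called members, 1 of 4 between tip and stalk, 19 of 35 in tip and 20 of 31 in stalk were called in all 25 alternatives. With the red channel alone 3 members turned in sign: tip minus nonvascular retina became 0.00 for B3gntl1, 0.27 for Chst5 and 0.03 for Gpc2, and stalk minus nonvascular retina became 0.13 for Gpc2. Outside the members Hyal1 in tip minus nonvascular retina went from 0.23 to 0.00 in that setting. Over all genes tested, 893 were called between tip and stalk, but 252 with median centring, 225 with brightness, 444 without stalk replicate 1, 467 without stalk replicate 3, 529 and 546 without tip replicates 2 and 3, and 1605 without tip replicate 6. The cause of these changes was not tested. A block for the slide could not be fitted, since each array was its own slide. Dim probes near background limit what small differences can show.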
